A study of Mus musculus with 9 samples.

Results

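The Ikaros family comprises 5 genes of the mouse genome, Ikzf1 (Ikaros), Ikzf2 (Helios), Ikzf3 (Aiolos), Ikzf4 (Eos) and Ikzf5 (Pegasus). They were chosen by symbol, each matched exactly 1 row of the table, and together they are 5 of its 41978 genes. The samples were bulk RNA-seq profiles of semi-mature SP4 thymocytes, CD4+ cells lacking CD8 that have passed positive selection, sorted live from the thymus of Nur77-eGFP BAC Tg mice, with no treatment named, as CD25-, CD69+ and CD24+ cells. In all 9 samples the same transgene, a bacterial artificial chromosome carrying eGFP under Nr4a1 (Nur77) control, reports T cell receptor (TCR) signalling, and no sample came from mice without it. About 10% of the GFP distribution was collected at its low, middle and high end as GFPlo, GFPmed and GFPhi, with 3 samples per group and 10000 cells per sample. The labels call the 3 samples of a group biological replicates, but neither they nor the methods say if samples with the same number shared a mouse, and the CD24 gate is described in different ways within the study.

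Ikaros family proteins are zinc finger transcription factors. A cluster of fingers near the amino terminus binds DNA, and a pair of fingers at the carboxy terminus lets members form dimers with each other. Ikaros, Helios, Aiolos and Eos can recruit repressor complexes such as NuRD, which joins histone deacetylases to a chromatin remodeller, and the CtBP and Sin3 corepressors. Ikaros is required for lymphoid development and restrains Notch target genes in thymocytes, Aiolos is best known from B cells and helper T cells, and Pegasus is the most distant member. Helios and Eos are associated with regulatory T cells (Treg), and Helios is also known as a marker of thymocytes that have met strong TCR signals.

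A part of the coding sequence that Ikzf1 to Ikzf4 share closely is shown first. It bears on whether reads of 1 member could be counted for another. Printed is the DNA of the second amino-terminal zinc finger of the longest coding transcript of Ikzf1 to Ikzf4, and of the Ikzf5 finger (its first) with most residues in common with that of Ikzf1, from GENCODE transcripts of GRCm38. Capitals mark the codons of the 2 cysteines and 2 histidines that hold the zinc ion.
Ikzf1: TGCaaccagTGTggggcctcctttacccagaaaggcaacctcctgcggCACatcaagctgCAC
Ikzf2: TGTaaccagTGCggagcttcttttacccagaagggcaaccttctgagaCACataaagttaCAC
Ikzf3: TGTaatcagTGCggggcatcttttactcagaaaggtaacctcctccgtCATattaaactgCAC
Ikzf4: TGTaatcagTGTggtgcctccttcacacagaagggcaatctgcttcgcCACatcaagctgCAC
Ikzf5: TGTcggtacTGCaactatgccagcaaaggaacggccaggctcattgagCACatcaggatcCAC
Each stretch has 63 bases within a single exon. They lie at chr11:11754024-11754086 on the + strand for Ikzf1 and, on the - strand, at chr1:69570581-69570643 for Ikzf2, chr11:98488940-98489002 for Ikzf3, chr10:128640229-128640291 for Ikzf4 and chr7:131393759-131393821 for Ikzf5. The finger encodes the same 21 residues in Ikzf1, Ikzf2, Ikzf3 and Ikzf4, although the DNA of Ikzf1 differs from that of Ikzf2 at 12 bases, of Ikzf3 at 12 bases and of Ikzf4 at 10 bases. The Ikzf5 finger shared 6 of 21 residues with that of Ikzf1 and differed from it at 34 bases. Over whole transcripts, the longest stretch shared exactly by a pair of members was 32 bases, for Ikzf2 and Ikzf4, and 26 bases for Ikzf1 and Ikzf3, both shorter than a read of these libraries.

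The genes themselves lie at chr11:11685003-11772926 (+ strand) for Ikzf1, chr1:69531214-69687245 (- strand) for Ikzf2, chr11:98464902-98546031 (- strand) for Ikzf3, chr10:128630843-128645991 (- strand) for Ikzf4 and chr7:131388652-131410521 (- strand) for Ikzf5, all on GRCm38. Libraries of this kit do not mark the strand, so reads in exons that lie over an exon of another gene cannot be assigned by strand. None of the exonic bases of Ikzf1 and Ikzf3 lay in an exon of another annotated gene, and 144 of 11613 did for Ikzf2 and 37 of 5995 for Ikzf4. For Ikzf5, however, 4835 of 5721 exonic bases (84.5%) did, most of them in Pstk, which encodes a kinase acting on selenocysteine transfer RNA and runs on the opposite strand. Every value of Ikzf5 is therefore less certain than those of the other members.

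The deposited values are TPM, a unit scaled by gene length and sample total, and the whole reads behind them could be solved. Reads on genes ranged from 7465552 to 14943774 per sample, and those of the members from 130 for Ikzf4 in a GFPlo sample to 7474 for Ikzf1 in a GFPmed sample. Nr4a1, the gene that the reporter reads, had a TPM of 213, 187 and 251 in the GFPlo samples, 366, 351 and 406 in the GFPmed samples and 767, 917 and 836 in the GFPhi samples, so its levels followed the sort without overlap. Genes expected of SP4 thymocytes were present in every group, among them Trac, Cd3e and Cd4 with overall means of 1858, 1171 and 539 TPM. In bulk samples, a larger share of cells that express a gene and more RNA per cell cannot be told apart, and this holds for every difference given here.

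Ikzf2, which encodes Helios, had the largest log2 fold change of the family between GFPhi and GFPlo. Its TPM was 1.62, 1.54 and 1.49 in the GFPlo samples, 2.25, 2.06 and 2.46 in the GFPmed samples and 15.9, 14.3 and 16.5 in the GFPhi samples. The GFPmed samples lay just above the GFPlo samples and the GFPhi samples stood far above both, with no overlap anywhere. In GFPlo the mean was 1.55 ± 0.0636 TPM (SD, n = 3) and in GFPhi 15.6 ± 1.13 TPM, which is 10.0-fold higher. Its log2 fold change, computed on log2(TPM + 1) and so too small for genes of low TPM, was 2.70 (standard error 0.17, adjusted p = 0.000236 from limma), the 90th highest among the 30693 genes tested. Between GFPhi and GFPmed the log2 fold change was 2.35 (standard error 0.17, limma adjusted p = 0.00126), whereas between GFPmed and GFPlo it was 0.35 (95% confidence interval -0.04 to 0.75, limma adjusted p = 1).

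Inside Ikzf2 the annotation places 2 unspliced transcripts of the same strand in introns, Gm29112 and Gm28112, which are named here after their values were seen. Mean TPM in GFPlo, GFPmed and GFPhi was 14.9, 13.9 and 39.6 for Gm29112 and 7.01, 9.20 and 25.4 for Gm28112. Both were higher in GFPhi than in GFPlo, by 1.40 (limma adjusted p = 0.0492) and 1.70 (limma adjusted p = 0.0352) on the log2 scale.

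Ikzf4, which encodes Eos, a partner of Foxp3 in Treg, had the smallest adjusted p of the family. It had 6.80, 6.43 and 6.36 TPM in the GFPlo samples, 11.7, 11.1 and 12.7 TPM in the GFPmed samples and 36.9, 41.6 and 43.1 TPM in the GFPhi samples. The 3 groups were separate and ascended in the order of the sort. The mean was 6.53 ± 0.24 TPM (SD, n = 3) in GFPlo and 40.5 ± 3.25 TPM in GFPhi, which is 6.20-fold higher. Its log2 fold change was 2.46 (standard error 0.11, limma adjusted p = 5.61e-05), the 127th highest of all genes tested, and 1.69 between GFPhi and GFPmed (limma adjusted p = 0.000802). Between GFPmed and GFPlo it was 0.77 (95% confidence interval 0.51 to 1.03), below the fold change limit and with a limma adjusted p of 0.131, although every GFPmed sample lay above every GFPlo sample.

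Ikzf3, which encodes Aiolos, rose as well. Its TPM was 7.41, 6.88 and 7.55 in the GFPlo samples, 10.9, 11.4 and 9.57 in the GFPmed samples and 25.6, 26.3 and 27.2 in the GFPhi samples, again with no overlap between neighbouring groups. The mean was 7.28 ± 0.356 TPM (SD, n = 3) in GFPlo and 26.4 ± 0.813 TPM in GFPhi, which is 3.62-fold higher. Against GFPlo the log2 fold change of GFPhi was 1.73 (standard error 0.12, limma adjusted p = 0.000284) and against GFPmed it was 1.24 (limma adjusted p = 0.00293). Between GFPmed and GFPlo it was 0.49 (95% confidence interval 0.22 to 0.76, limma adjusted p = 0.508). A division of the family into an inducible pair, Ikzf2 and Ikzf4, and constitutive others was thus not what these samples showed, since Ikzf3 passed the same thresholds as that pair in both comparisons with GFPhi.

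**Figure D1:**
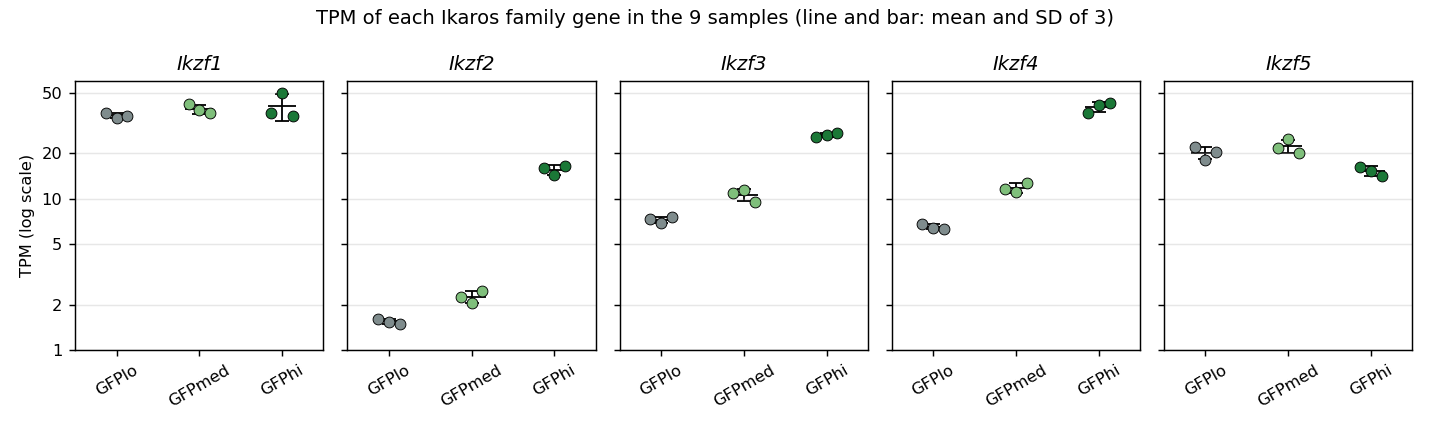
TPM of the 5 Ikaros family genes, on a logarithmic axis, in the 3 GFPlo, 3 GFPmed and 3 GFPhi samples. Points are samples, and lines with bars give the mean and SD of each group. Ikzf2, Ikzf3 and Ikzf4 ascend without overlap, from means of 1.55, 7.28 and 6.53 TPM in GFPlo to 15.6, 26.4 and 40.5 TPM in GFPhi, while the 3 groups of Ikzf1 overlap and the GFPhi samples of Ikzf5 are the lowest of their gene.

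Ikzf1, the founding member of the family, did not pass the test in any comparison. It had 37.1, 34.4 and 35.3 TPM in the GFPlo samples, 42.1, 38.9 and 36.8 TPM in the GFPmed samples and 36.9, 50.4 and 35.2 TPM in the GFPhi samples. The groups overlapped, and GFPhi replicate 2 was higher than any other sample. GFPhi against GFPlo gave a log2 fold change of 0.17 (95% confidence interval -0.14 to 0.49, limma adjusted p = 0.703), an interval that reaches neither -1 nor 1, and of 0.02 without GFPhi replicate 2. Between GFPmed and GFPlo the log2 fold change was 0.14 (95% confidence interval -0.18 to 0.45), and between GFPhi and GFPmed it was 0.04 (95% confidence interval -0.28 to 0.36).

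Ikzf5, which encodes Pegasus, was not called either, but its values lay in the other direction. It had 22.0, 18.1 and 20.4 TPM in the GFPlo samples, 21.8, 24.7 and 20.2 TPM in the GFPmed samples and 16.3, 15.3 and 14.2 TPM in the GFPhi samples. Each GFPhi sample lay below each of the other 6 samples, as was the case for 5.45% of all genes tested. Its log2 fold change was -0.38 (95% confidence interval -0.66 to -0.09, limma adjusted p = 0.185) between GFPhi and GFPlo and -0.51 (95% confidence interval -0.79 to -0.23, limma adjusted p = 0.111) between GFPhi and GFPmed. Pstk, whose exons cover most of those of Ikzf5, had means of 33.5, 32.5 and 26.8 TPM in GFPlo, GFPmed and GFPhi and a log2 fold change of -0.31 (limma adjusted p = 0.180) between GFPhi and GFPlo. Its part in the values of Ikzf5 was not tested.

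All 5 members entered the test, which took in genes that reached a TPM of 1 in no fewer than 3 samples. Calls required an absolute log2 fold change of 1 or more and a limma p, adjusted by Benjamini and Hochberg, no higher than 0.05. Between GFPhi and GFPlo, 3 of 5 members were called higher and 0 lower, beside 1.26% of all genes tested called higher and 0.404% lower. At an unadjusted p under 0.05 the members numbered 4 in this comparison, Ikzf5 being the fourth, beside 13.8% of all genes tested. Between GFPhi and GFPmed the same 3 genes, Ikzf2, Ikzf3 and Ikzf4, were called higher and 0 lower, beside 0.541% and 0.15% of all genes. These comparisons share the GFPhi samples and are not independent of each other. Between GFPmed and GFPlo, 0 members were called by limma in either direction, beside 0.0554% of all genes higher and 0.00326% lower. In that comparison 2 members, Ikzf3 and Ikzf4, had an unadjusted p under 0.05, beside 4.67% of all genes tested. There limma-voom on the solved reads called 0 members as well.

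**Figure D2:**
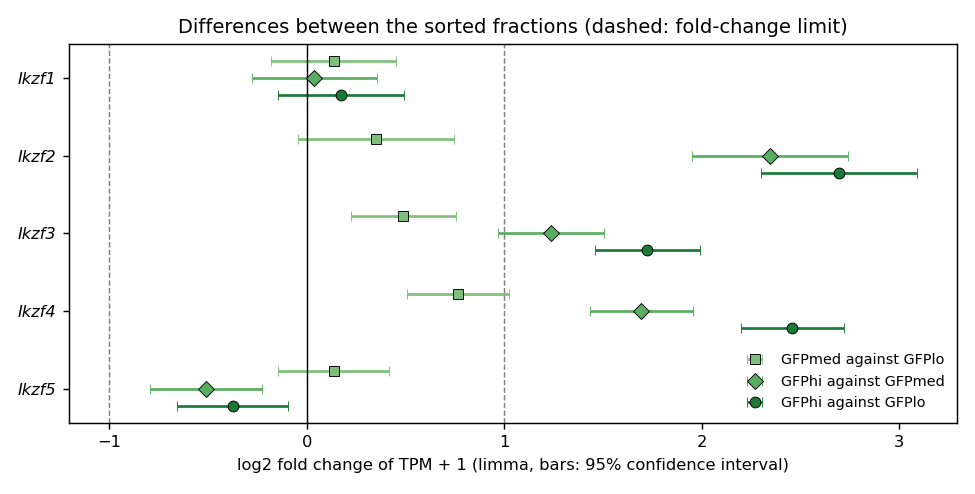
Log2 fold changes of TPM + 1 for each member (rows) in GFPmed against GFPlo (squares), GFPhi against GFPmed (diamonds) and GFPhi against GFPlo (circles), with 95% confidence intervals from limma; dashed lines mark the fold change limit of 1. Ikzf2, Ikzf3 and Ikzf4 lie beyond the limit in both comparisons with GFPhi, at 2.70, 1.73 and 2.46 against GFPlo, and short of it between GFPmed and GFPlo.

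The order of the 3 sorted groups was tested next for each member, with an exact permutation test of the slope of log2(TPM + 1) over all arrangements of the 9 samples (two-sided). Ikzf2 gained 1.35 per step of the sort, Ikzf4 gained 1.23 and Ikzf3 gained 0.86, each with an exact permutation p of 0.00119, the smallest that the design can give (0.00198 after Benjamini-Hochberg adjustment over the 5 members). In each of these genes every GFPmed sample lay above every GFPlo sample and every GFPhi sample above every GFPmed sample, an order found in 1.67% of all genes tested. Ikzf1 had a slope of 0.09 (exact permutation p = 0.233) and Ikzf5 a slope of -0.19 (exact permutation p = 0.0690). Neither of these slopes passed the threshold.

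Of the 3 members that rose, Ikzf2 had the smallest share of its rise by GFPmed. Ikzf2 had made 13.0% of its log2 rise from GFPlo to GFPhi by GFPmed (11.4% to 14.6% when each sample was left out in turn), so that nearly all of its rise lay between GFPmed and GFPhi. Ikzf3 had made 28.3% of its rise by then (25.5% to 32.2%) and Ikzf4 31.1% (29.1% to 32.9%). The range of Ikzf2 did not reach those of Ikzf3 and Ikzf4, which overlapped each other. Nr4a1 had made 40.5% of its rise by GFPmed (37.2% to 43.6%). These shares are descriptions without a test, and for Ikzf2, the member with the lowest TPM in GFPlo, the added 1 TPM weighs most.

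The ratio between members asks more directly whether they responded by different amounts. The same exact permutation test of the trend was run for the 10 pairs, adjusted over those 10. The ratio of Ikzf1 to each of the genes that rose fell with the sort, by 2.52 on the log2 scale from GFPlo to GFPhi against Ikzf2, by 2.29 against Ikzf4 and by 1.55 against Ikzf3, each with an exact permutation p of 0.00119 (adjusted 0.00198). The ratios of Ikzf3 and Ikzf4 to Ikzf5 rose by 2.10 and 2.84 with the same p, and that of Ikzf2 to Ikzf5 rose by 3.07 (exact permutation p = 0.00238, adjusted 0.00340). The ratio of Ikzf1 to Ikzf5 rose by 0.55 (exact permutation p = 0.0155, adjusted 0.0193), and its slope of 0.27 per step of the sort was 0.18 without GFPhi replicate 2 (exact permutation p = 0.0393). Its mean log2 ratio was 0.80 in GFPlo, 0.79 in GFPmed and 1.345 in GFPhi.

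Among the genes that rose, the ratio of Ikzf3 to Ikzf4 fell by 0.74 on the log2 scale from GFPlo to GFPhi (exact permutation p = 0.00119, adjusted 0.00198). Its mean on the log2 scale was 0.14 ± 0.07 (SD, n = 3) in GFPlo and -0.60 ± 0.08 in GFPhi. Only the change can be read from these means, since TPM of different genes rests on different lengths. The ratio of Ikzf2 to Ikzf3 rose by 0.97 (exact permutation p = 0.0202, adjusted 0.0225). Its mean on the log2 scale was -1.70 in GFPlo, -1.84 in GFPmed and -0.73 in GFPhi, so the rise lay between GFPmed and GFPhi. The mean log2 ratio of Ikzf2 to Ikzf4 with 1 TPM added was -1.56 ± 0.01 in GFPlo, -1.98 ± 0.01 in GFPmed and -1.32 ± 0.15 in GFPhi, so that the GFPmed samples were the lowest of the 9. Its slope of 0.12 per step of the sort had an exact permutation p of 0.331. With 0.1 TPM added instead the slope was 0.32 (exact permutation p = 0.0738), and without GFPhi replicate 1 it was 0.04 (exact permutation p = 0.741). The test speaks of the trend alone and does not show that the ratio stayed the same.

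**Figure D3:**
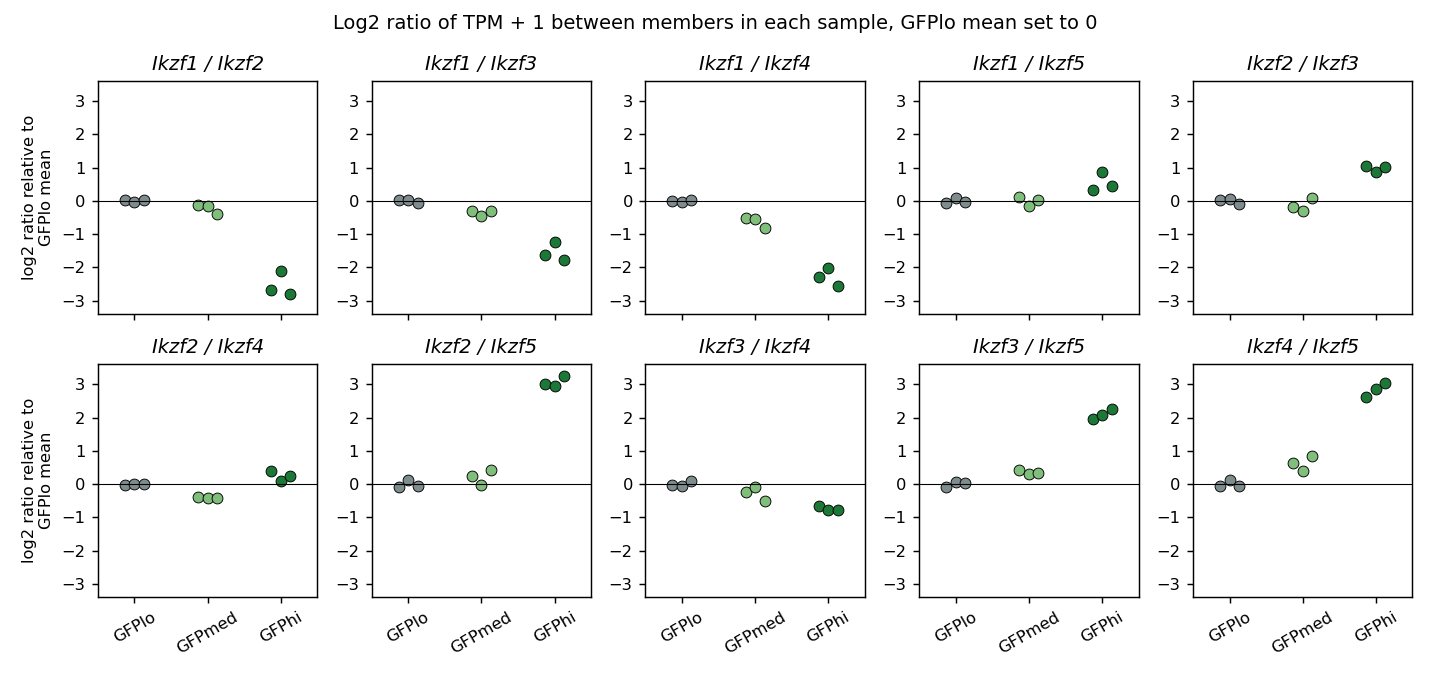
Log2 ratio of TPM + 1 between the members of each of the 10 pairs in every sample, with the GFPlo mean set to 0. Ratios of Ikzf1 to Ikzf2, Ikzf3 and Ikzf4 fall by 2.52, 1.55 and 2.29 from GFPlo to GFPhi, while the ratio of Ikzf2 to Ikzf4 is lowest in GFPmed.

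TPM of different genes could not be set side by side, because the length used for them was the genomic stretch covered by a transcript, introns included and averaged over transcripts, in 97.3% of protein-coding genes. Levels between members were therefore compared as solved reads per kilobase of exon, scaled to the reads of the sample (RPKM). On this scale Ikzf1 was the most abundant member throughout, with 75.2 ± 3.09 (SD, n = 3) in GFPlo, 82.3 ± 3.90 in GFPmed and 86.8 ± 14.4 in GFPhi samples. In GFPlo the levels of Ikzf3, Ikzf4 and Ikzf2 followed with 4.64 ± 0.22, 2.75 ± 0.111 and 2.57 ± 0.115. The values of Ikzf4 and Ikzf2 overlapped there, whereas every sample of Ikzf3 lay above every sample of Ikzf4.

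In GFPhi the order of these levels was different. Ikzf2 stood next to Ikzf1 with 26.2 ± 2.72 RPKM, and Ikzf4 and Ikzf3 followed with 17.2 ± 1.13 and 17.0 ± 0.711, which overlapped. The place of Ikzf3 depends on its length. Per kilobase of the longest annotated transcript, Ikzf3 had a level of 32.3 in GFPhi, Ikzf2 32.7 and Ikzf4 20.1. Ikzf5 had levels of 9.65 ± 0.933 in GFPlo, 10.6 ± 1.03 in GFPmed and 7.41 ± 0.689 in GFPhi per kilobase of all its exons, but 47.8 ± 4.45 in GFPhi per kilobase of the 886 exonic bases that lie in no other gene, so it was given no place in the order.

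Summed over Ikzf1 to Ikzf4, the level per exonic length was 85.1 ± 3.42 (SD, n = 3) in GFPlo, 97.8 ± 3.65 in GFPmed and 147 ± 10.6 in GFPhi. Ikzf1 made up 88.3% ± 0.104 of this sum in GFPlo, 84.2% ± 0.858 in GFPmed and 58.7% ± 5.41 in GFPhi. Ikzf2, Ikzf3 and Ikzf4 together accounted for 11.6% to 11.8% of it in the GFPlo samples, 14.9% to 16.7% in the GFPmed samples and 35.3% to 45.8% in the GFPhi samples, so the groups did not overlap. The lowest of the GFPhi values came from GFPhi replicate 2, the sample with the highest Ikzf1. Of the sum in GFPhi, Ikzf2 contributed 17.9% ± 3.02, Ikzf4 11.8% ± 1.32 and Ikzf3 11.6% ± 1.27. All these shares depend on the length chosen, which the SDs do not cover. Per kilobase of the longest transcript, the GFPhi levels of Ikzf1 to Ikzf4 were 97.1, 32.7, 32.3 and 20.1. On that length Ikzf3 stood near Ikzf2 and above Ikzf4.

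**Figure D4:**
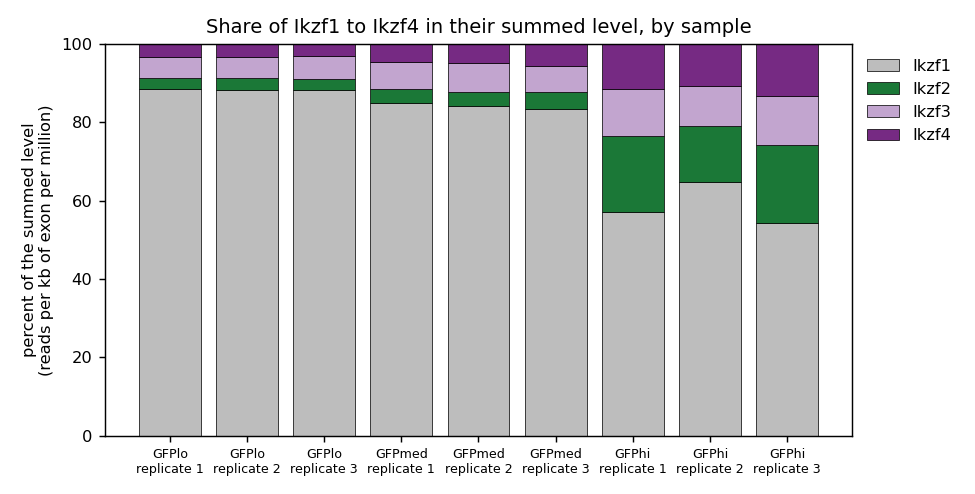
Share of Ikzf1, Ikzf2, Ikzf3 and Ikzf4 in their summed level (RPKM on exonic length, in percent) in each of the 9 samples. Ikzf1 takes 88.3% on average in GFPlo and 58.7% in GFPhi, where Ikzf2 takes 17.9%. The shares depend on the length chosen, above all that of Ikzf3. Ikzf5 is left out because most of its exonic bases lie in another gene.

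Partners and target genes of the family were described by lists, without a test of the list. TPM of listed genes rests on genomic length, so its means and sums do not rank genes by abundance. In the NuRD complex 0 of 13 members tested were called in any of the 3 comparisons. Between GFPhi and GFPlo 1.26% of all genes tested were called higher and 0.404% lower, so lists this short would rarely hold a call. In that comparison the complex had a median log2 fold change of -0.08, beside -0.09 for all genes tested. Its members with the highest mean TPM were Mta2, a scaffold subunit, with a log2 fold change of -0.25 (limma adjusted p = 0.107), Chd3, a remodelling ATPase, with -0.03 (limma adjusted p = 0.960) and the deacetylase Hdac1 with 0.21 (limma adjusted p = 0.174). Of the Sin3 and CtBP corepressors 4 were tested and 0 called in any comparison, with a median of -0.06. Ctbp1, Sin3b and Sin3a had log2 fold changes of -0.03, -0.24 and 0.09. Log2 fold changes of single members of these 2 lists ranged from -0.32 to 0.23 between GFPhi and GFPlo, smaller than those of Ikzf2, Ikzf3 and Ikzf4. Mbd2 (-0.32, standard error 0.41) and Mta1 (0.16, standard error 0.48) were measured too loosely to exclude a change beyond the limit of 1.

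Notch receptors and target genes, which Ikaros is known to restrain in thymocytes, gave 0 calls among 6 genes tested in all 3 comparisons, with a median log2 fold change of -0.10 between GFPhi and GFPlo. Notch1, the main receptor of thymocytes, had 88.3, 87.3 and 84.6 TPM in GFPlo, GFPmed and GFPhi (log2 fold change -0.07). Dtx1, a Notch target that encodes a ubiquitin ligase, had 18.0, 24.1 and 13.1 TPM (-0.42, limma adjusted p = 0.570). This was the lowest log2 fold change of the list between GFPhi and GFPlo, and the highest was 0.58.

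Helios and Eos are also markers of Treg, and part of a list of Treg genes was higher in the same samples although CD25+ cells had been excluded by the sort. In that list 6 of 12 genes tested were called higher and 0 lower in GFPhi against GFPlo, beside 1.26% and 0.404% of all genes tested. The median log2 fold change was 1.18, beside -0.09 for all genes tested. Called were Il2rb (3.65) and Il2ra (2.68), which encode chains of the interleukin-2 receptor, and the costimulatory receptors Tnfrsf4 (3.41) and Tnfrsf18 (2.03). The inhibitory receptor Ctla4 (2.72) and the lineage factor Foxp3 (1.10) were called as well. Mean TPM of Foxp3 was 6.75 ± 0.249 (SD, n = 3) in GFPlo, 6.33 ± 0.835 in GFPmed and 15.7 ± 2.38 in GFPhi, with a limma adjusted p of 0.00987 between GFPhi and GFPlo. Izumo1r, Gpr83 and Capg had the highest mean TPM among genes of the list without a call, with log2 fold changes of 0.58, 0.44 and 0.38. Nrp1, a surface receptor of thymic Treg, had a mean of 3.19 TPM in GFPlo and 1.16 TPM in GFPhi (log2 fold change -0.96, limma adjusted p = 0.0508), and Itgae had a log2 fold change of -0.11 (limma adjusted p = 0.885). Between GFPmed and GFPlo 2 of the 12 were called higher, Tnfrsf4 and Tnfrsf18, and between GFPhi and GFPmed the same 6 as against GFPlo. Of all genes tested, 0.0554% and 0.541% were called higher in these comparisons. With the replicate number in the model, Tnfrsf18 was no longer called between GFPmed and GFPlo (limma adjusted p = 0.121). Nor was Foxp3 between GFPhi and GFPmed (limma adjusted p = 0.05002). The summed TPM of the list was 443 to 464 in GFPlo, 813 to 923 in GFPmed and 1772 to 1961 in GFPhi samples. Most of the sum in GFPhi came from Tnfrsf4 and Tnfrsf18, with means of 718 and 716 TPM there, so it says little of the other genes. As this TPM rests on genomic length, genes of short span weigh more in such a sum. The part of Treg or their precursors in the rise of Ikzf2, Ikzf3 and Ikzf4 was not tested.

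The Nr4a family, 3 genes of which Nr4a1 is the one reported, gave 3 of 3 called higher between GFPhi and GFPlo, beside 1.26% of all genes tested. Called were Nr4a3 (log2 fold change 1.97), Nr4a1 (1.95) and Nr4a2 (1.10). Ikzf2 and Ikzf4 had larger log2 fold changes than any of these, whereas Ikzf3 lay below Nr4a1. Between GFPmed and GFPlo 0 of the 3 were called, as for the Ikaros genes, and Nr4a1 and Nr4a3 were called between GFPhi and GFPmed. With the replicate number in the model, Nr4a2 lost its call between GFPhi and GFPlo (limma adjusted p 0.0438 without and 0.0863 with it).

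Markers of other cells were read for the same samples. Between GFPhi and GFPlo 1.26% of all genes tested were called higher and 0.404% lower, so 0 calls in lists this short say little. Of the markers of DP thymocytes, the stage before SP4, 2 of 5 tested were called lower in GFPhi than in GFPlo, Dntt (log2 fold change -1.43) and Cd8a (-1.12), and the summed TPM of the list fell without overlap from 56.5 to 58.2 in GFPlo and 48.8 to 51.7 in GFPmed to 26.5 to 35.0 in GFPhi. Cd8b1, Rag1 and Arpp21 were not called, with log2 fold changes of -0.79, -0.20 and -0.18. Of the SP4 markers 0 of 7 were called, with Trac at 0.23, Cd3e at -0.18 and Cd4 at -0.30. Cd69, a marker of recent activation and selection, had means of 375 TPM (GFPlo) and 216 TPM (GFPhi) and differed by -0.79 on the log2 scale, which passed the p threshold (limma adjusted p = 0.0142) and fell short of the fold change limit, and Zbtb7b, the helper lineage factor, had -0.72 (limma adjusted p = 0.0739). Among B cell markers 0 of 3 tested were called, Ms4a1, Cd79a and Cd79b having means over all samples of 6.74, 5.17 and 5.07 TPM, and the list summed to 14.9 to 19.5 TPM in GFPlo and 10.6 to 21.3 TPM in GFPhi. Myeloid and dendritic cell markers (0 of 5 called, led by Cst3, Csf1r and Lyz2 with 72.3, 9.49 and 5.51 TPM) summed to 80.8 to 104 TPM in GFPlo and 92.0 to 97.3 TPM in GFPhi.

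Of the thymic epithelial markers 1 of 3 tested was called, Epcam, an adhesion molecule with 2.79 TPM in GFPlo and 8.78 TPM in GFPhi (log2 fold change 1.38), while Psmb11 and Krt8 had means of 1.43 and 0.886 TPM and were not called. The list summed to 3.86 to 8.96 TPM in GFPlo and 10.3 to 13.2 TPM in GFPhi samples. Epcam made up most of the sum in GFPhi, on a TPM that rests on genomic length. Of all genes tested, 1.26% were called higher and 0.404% lower between GFPhi and GFPlo. Innate-like lymphocyte markers gave 0 calls among 4 tested, with Gata2, Ncr1 and Klrb1c at 2.64, 2.30 and 2.26 TPM on average and a summed level of 8.05 to 11.3 TPM in GFPlo and 5.39 to 9.95 TPM in GFPhi. Of the erythroid markers only Hbb-bs was tested, and it was not called (1.97 TPM in GFPlo and 5.07 TPM in GFPhi). No listed marker in the table was at 0 in every sample of a group. The part of these cells in the values of the Ikaros genes was not tested.

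**Figure D5:**
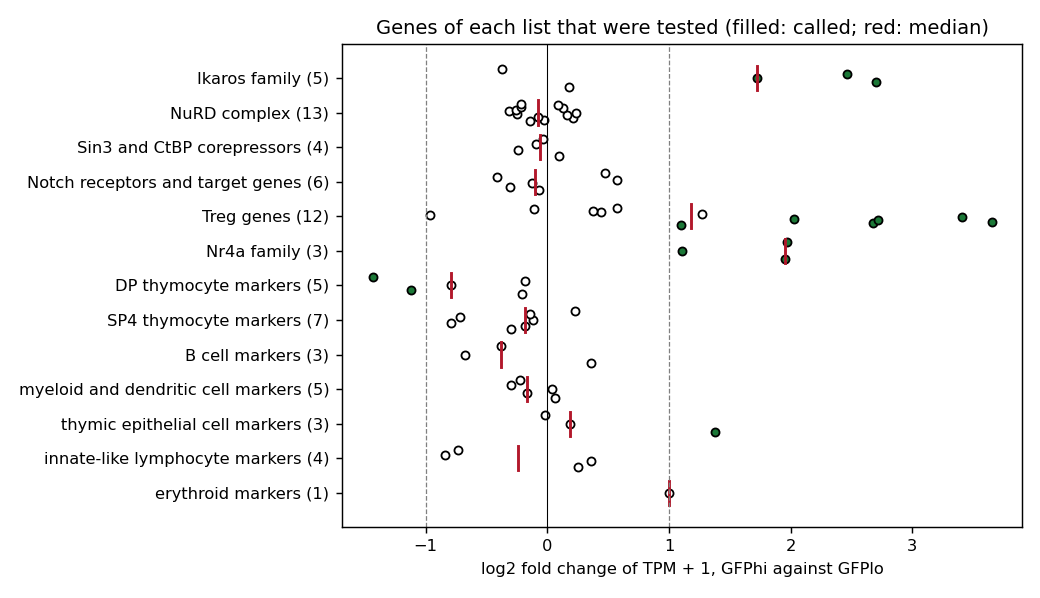
Log2 fold change of TPM + 1 between GFPhi and GFPlo for the tested genes of each list (number tested in parentheses). Filled points were called, open points were not, red bars give the median of the list and dashed lines the fold change limit of 1. Ikzf2, Ikzf3 and Ikzf4 stand with Treg and Nr4a genes to the right of the limit, while NuRD and corepressor genes lie between -0.32 and 0.23.

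Genes whose levels over the 9 samples were most like those of each member that rose were ranked by Pearson's r of log2(TPM + 1) among 15215 genes, leaving out symbols of the Gm and Rik series. These values are a description, since the 9 samples form 3 groups that all such genes separate and share library and depth. Ikzf2 was most like Arhgap20 (r = 0.996), a GTPase-activating protein with mean TPM of 0.991, 1.88 and 52.9 in GFPlo, GFPmed and GFPhi, followed by the nuclear receptor corepressor Nrip1 (0.995), Cyth3 (0.994), Adamts6 (0.993) and Fam163b (0.993). Ikzf3 was most like Ctla4 (0.995), with S1pr1 (0.994), the receptor that guides thymocytes out of the thymus, Mapkapk2 (0.994), Tnfrsf1b (0.993) and Parp8 (0.993) next. Ikzf4 was most like Smc4 (0.999), a condensin subunit with 38.8, 80.1 and 366 TPM, followed by Tnfrsf1b (0.997), Il2ra (0.997), Cyth4 (0.996) and Tnfrsf9 (0.995). Tnfrsf1b, a receptor for tumour necrosis factor, was the only gene listed for more than 1 member. Among themselves, Ikzf3 and Ikzf4 had an r of 0.991, Ikzf2 and Ikzf4 of 0.980 and Ikzf2 and Ikzf3 of 0.980. Nr4a1 had an r of 0.985 with Ikzf4, 0.975 with Ikzf3, 0.943 with Ikzf2, 0.471 with Ikzf1 and -0.70 with Ikzf5 over the same 9 samples.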

How the data were processed

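Thymocytes were profiled by SMART-seq v4 and Nextera XT bulk RNA-seq. The authors trimmed the reads, aligned them to GRCm38 with STAR (2.7.11b, per the submitters' processing notes) and GENCODE genes, removed duplicates, counted reads per gene and deposited TPM. The authors also deposited each group's mean normalized signal (reads divided by DESeq2 1.34.0 size factors); it was used only to solve the reads behind the TPM, which came out whole (within 0.05) for 100% of values in each sample, for 41578 genes and not for 400. Their fold changes, adjusted p-values and call flags were not used.

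The 9 samples were grouped by their labels. limma 3.58.1 (R 4.3.3) was run on log2(TPM + 1) in one model over all samples, with eBayes and a trend and no replicate block, for the 30693 genes that reached a TPM of 1 in no fewer than 3 samples; no count model was the main test because the table holds TPM. The fit was tested on simulated data. p-values measure the spread between these samples. Single values were tested by exact permutation in Python 3 (scipy). Intervals are 95% confidence intervals of limma. As reads carry no molecular identifiers, their counting error understates the error of a value.

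The members and lists were chosen with earlier results of these data known. A marker of the lists is not reported here. Named were the 5 members, Nr4a1 and the called genes of each list (up to 6, largest fold change first). Up to 3 uncalled genes of each list were added, those with the highest mean TPM. The 5 genes most like each called member were also named (a mean TPM of at least 1 and no Gm or Rik symbol). Exceptions are marked. Exons and transcripts came from an earlier GENCODE release than the authors', on the same build. Alternatives were limma-voom on solved reads, a smaller pseudocount (0.1), a filter at a TPM of 5 or none, scaling by median of ratios, a fit of the 2 groups alone, a prior without trend, a replicate block, omission of each sample, no fold change limit and the longest transcript as length. Library totals in limma-voom and exonic bases of no other gene were added as alternatives chosen after seeing the data.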

Additional observations from a re-analysis of the deposited data

How the results depend on the processing

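The calls of the members (Ikzf2, Ikzf3 and Ikzf4 higher in GFPhi against GFPlo and GFPmed, 0 between GFPmed and GFPlo) were the same genes under all 19 alternatives. Same-numbered samples of different groups had deviations from their group means that correlated at 0.0122 to 0.225 (mean 0.0609, 9 pairs) against a mean of -0.0305 for 18 differently numbered pairs, and 6 of 9 samples correlated best with their own number. Since not every pair exceeded 0.1, the numbers were not taken to pair the samples. With the replicate block 3, 0 and 3 members were called as before, with limma adjusted p of 0.00279, 0.00385 and 0.00131 for Ikzf2, Ikzf3 and Ikzf4 between GFPhi and GFPlo. Arrangements kept within the replicate block gave their trends an exact permutation p of 0.00926, the smallest possible. They lost the call for the ratio of Ikzf1 to Ikzf5 (slope 0.27, exact permutation p = 0.0556) and of Ikzf2 to Ikzf3 (slope 0.49, exact permutation p = 0.0648); it changed no other call of the members. Of the listed genes it ended the call of Nr4a2 (GFPhi against GFPlo, limma adjusted p 0.0438 without and 0.0863 with the replicate block), of Tnfrsf18 (GFPmed against GFPlo, 0.0317 and 0.121), and of Foxp3 and Cd8a (GFPhi against GFPmed, 0.0134 and 0.05002, 0.0299 and 0.0646).

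Over all alternatives the log2 fold change between GFPhi and GFPlo ran from 2.66 to 3.38 for Ikzf2, 1.69 to 1.91 for Ikzf3 and 2.42 to 2.68 for Ikzf4, with adjusted p of at most 0.00580, 0.00601 and 0.00212. The slope of Ikzf5 ran from -0.25 to -0.14 with each sample left out, and passed the threshold without GFPlo replicate 2 (slope -0.25, exact permutation p = 0.0321) or GFPmed replicate 2 (slope -0.19, exact permutation p = 0.0429); the cause was not tested. With the longest transcript as length, GFPhi levels were 32.7, 32.3, 20.1 and 9.57 for Ikzf2 to Ikzf5. Exonic bases of no other gene moved Ikzf5 alone, to 47.8. Scaling by median of ratios gave a shift, summarised over all genes, of at most 0.07 (log2) in a comparison. Single genes could shift more, as Ikzf1 did between GFPhi and GFPlo, from 0.17 to 0.26. This scaling called 5 genes higher and 0 lower in GFPmed against GFPlo (17 and 1 as reported). It called 86 and 16 in GFPhi against GFPmed (166 and 46) and 321 and 69 in GFPhi against GFPlo (387 and 124).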
